A study of Homo sapiens with 6 samples.

Results

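The ATF4 amino acid response genes are 33 genes that the transcription factor ATF4 is known to raise, or that act beside it, when cells run short of amino acids. They were taken as a list of symbols and matched to NCBI gene identifiers, and 33 of 33 were found among the 40895 genes of the count files. The list holds 9 regulators, 8 enzymes of amino acid synthesis, 6 amino acid transporters, 7 tRNA synthetases and 3 further targets. Of the 33, 31 had enough counts to be tested beside the 15954 genes tested in all. The cells were A375SM, a human skin melanoma line derived from A375 and labelled as WT in genotype. In the 3 shPRAME libraries they carried a short hairpin RNA against the mRNA of PRAME, a cancer-testis antigen that serves as a substrate receptor of a CUL2 ubiquitin ligase, and in the 3 shCtrl libraries a control hairpin. PolyA RNA was sequenced on an Illumina NovaSeq, and all 6 libraries share a batch label. The labels do not say whether the libraries came from separate transductions, so the p-values reflect how these libraries varied, which may be technical variation alone, and the number of hairpins is not given in the sources used here.

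Cells that lack an amino acid accumulate uncharged tRNA, which activates the kinase GCN2 (gene EIF2AK4). GCN2 phosphorylates the initiation factor eIF2, which slows translation in general while the ATF4 mRNA is translated more. ATF4 protein then pairs with C/EBP factors at short composite DNA elements near genes for amino acid synthesis, uptake and tRNA charging. The output is thus set largely by translation of ATF4, which mRNA counts do not measure. Melanoma cells use this response when nutrients are limited.

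Libraries held 30842788 to 33854545 counts in shPRAME and 31525186 to 34107332 in shCtrl. PRAME itself averaged 56.4 ± 2.30 CPM in shPRAME and 165.0 ± 1.26 CPM in shCtrl (SD, n = 3 each), or 34.2% of the control level. CPM here are counts scaled to a common library size with TMM factors, which correct for composition. Of 6 tested melanocyte and melanoma markers 3 were higher and 2 lower. SOX10 stood at 275.4 ± 1.48 and 265.7 ± 7.95 CPM and ERBB3 at 603.3 ± 12.3 and 322.2 ± 4.11 CPM in shPRAME and shCtrl. MITF and S100B were the 2 that fell, by 0.24 and 0.94 on the log2 scale. Tested genes within 5 Mb had median log2 fold changes of 0.24 for MITF and -0.90 for S100B. Less that median, MITF stood at -0.49 and S100B at -0.03. The pigment genes TYR, MLANA and TYRP1 had from 0 to 5 counts over each group. PMEL and DCT, also pigment genes, had 27 and 23 counts over shPRAME and 11 and 4 over shCtrl. None of these pigment genes had enough counts for the test. Of 7 tested fibroblast markers 5 were higher and 2 lower, COL1A2 having 2157 counts over shPRAME and 0 over shCtrl. COL1A2, LUM, COL3A1 and COL1A1 had enough counts for the test only through shPRAME, so a call on them could only be higher. Summed fibroblast marker levels were 87.6 to 95.0 CPM in shPRAME and 112.5 to 116.3 CPM in shCtrl. All 3 tested leukocyte markers were higher, with sums of 72.2 to 74.1 CPM in shPRAME and 42.8 to 45.1 CPM in shCtrl that were nearly all CD68. LYZ had 131 counts over shPRAME and 7 over shCtrl, and PTPRC 92 and 0. LYZ and PTPRC also had enough counts for the test only through shPRAME. CD3E was at 0 in both groups. Of 4 keratinocyte markers only KRT10 was tested, at 23.4 ± 0.613 CPM in shPRAME and 28.2 ± 1.08 in shCtrl, and none of 3 endothelial markers had enough counts. Mitochondrial mRNA took 4.57% to 4.69% of counts in shPRAME and 3.82% to 4.05% in shCtrl, and nuclear ribosomal RNA 2.07% to 3.14% and 4.61% to 4.995%. The part of these differences in the results below was not tested. Fewer cells of a kind and less RNA per cell cannot be told apart in such bulk libraries.

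The response genes did not move as a unit. Of the 31 tested, 11 rose in shPRAME, 13 fell and 7 did not pass the test (edgeR quasi-likelihood, Benjamini-Hochberg adjusted p under 0.05 over all tested genes). Over all tested genes 37.7% rose and 36.8% fell, 74.4% in all, so the members' counts lay close to the background. Their median log2 fold change was -0.04, against 0.01 over all tested genes, and their median absolute change was 0.25, against 0.38. At least 2-fold changes passed in 4 members, 2 in each direction, where 18.6% of all tested genes passed that limit (10.1% higher, 8.43% lower). Among protein-coding genes at a mean of 10 CPM or more, a closer background, 7.10% passed the 2-fold limit and the median absolute change was 0.29, so the members' 12.9% lay below the one share and above the other. These 4 were CHAC1 and VLDLR, which rose, and DDIT4 and SLC1A4, which fell. The groups did not overlap at 25 members (76.5% of all tested genes). Against a minimum fold of 1.2, 8 members rose and 5 fell, where 24.6% and 23.8% of all genes did (48.4% in all). In summed level the 31 members averaged 4301 ± 5.48 CPM in shPRAME and 4114 ± 18.7 CPM in shCtrl (SD, n = 3 each).

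**Figure D1:**
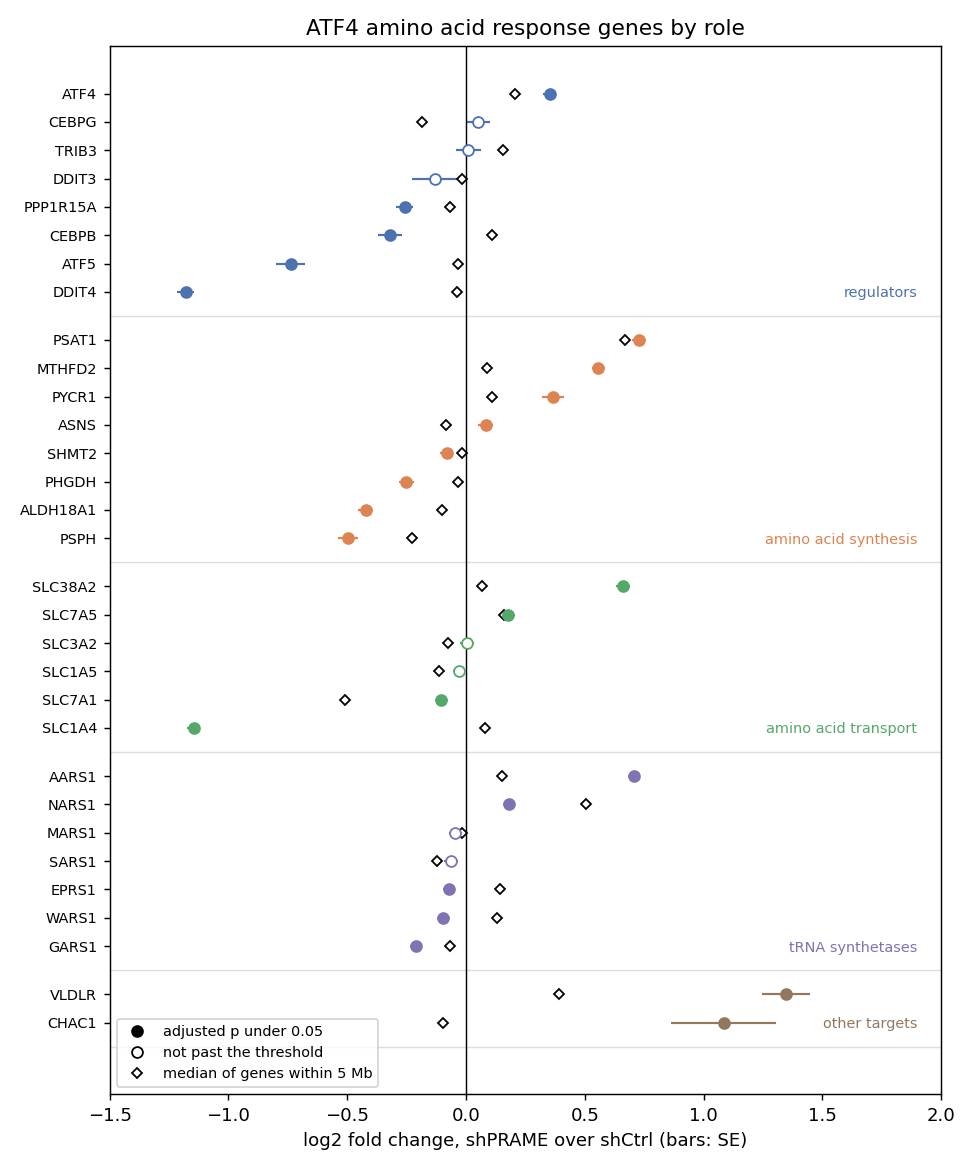
Log2 fold change of shPRAME over shCtrl for the 31 tested members, grouped by role, with bars for the standard error; filled points passed the test and diamonds mark the median log2 fold change of the tested genes within 5 Mb. DDIT4 and SLC1A4 lie lowest at -1.18 and -1.15 and VLDLR and CHAC1 highest at 1.35 and 1.08, and every role but the pair at the bottom spans 0.

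By role, 1 of 8 tested regulators rose and 4 fell, with a median log2 fold change of -0.20. Among 8 synthesis enzymes 4 rose and 4 fell (median 0.00), among 6 transporters 2 rose and 2 fell (median -0.01), and among 7 synthetases 2 rose and 3 fell (median -0.06). Both tested members of the last group, CHAC1 and VLDLR, rose. Summed levels of the synthesis enzymes were 866.3 ± 6.33 CPM in shPRAME and 807.9 ± 14.8 CPM in shCtrl. Those of the transporters were 1479 ± 10.4 and 1368 ± 4.26 CPM, those of the synthetases 1586 ± 12.6 and 1524 ± 18.9 CPM, and those of the regulators 357.6 ± 2.05 and 408.8 ± 6.87 CPM, in the same order of groups (SD, n = 3 each). The sums of 3 roles thus stood higher in shPRAME although no more of their genes rose than fell.

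The element that ATF4 and its C/EBP partners bind shares the letters TGATGNAA, and it was looked for in both orientations in the 300 bases around each annotated start in RefSeq (GRCh38.p14, 250 before and 50 after). RefSeq windows were at hand for 29 members, all but SHMT2, PYCR1, NUPR1 and PSPH. Of these 29, 11 held the letters (37.9%), against 358 of 12263 tested genes with a window (2.92%) and 1217 of 27305 of all genes (4.46%). By role they were in 4 of 6 transporters, 4 of 7 synthetases, 1 of 8 regulators, 1 of 5 synthesis enzymes and 1 of 3 further targets. The matches of the 7 genes that passed the test are shown because the same letters stood beside genes that rose and genes that fell. Each stretch is printed in the orientation of the element, with the match in capitals.
CHAC1 (rose; chr15:40953252-40953279, minus strand): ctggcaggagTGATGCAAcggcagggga
AARS1 (rose; chr16:70289676-70289703, plus strand): ctaacttggcTGATGCAActgcgagaaa
NARS1 (rose; chr18:57621805-57621832, minus strand): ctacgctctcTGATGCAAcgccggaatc
ASNS (rose; chr7:97872459-97872486, minus strand): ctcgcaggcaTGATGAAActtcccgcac
SLC1A4 (fell; chr2:64989382-64989409, minus strand): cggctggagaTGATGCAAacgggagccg
SLC7A1 (fell; chr13:29595664-29595691, minus strand): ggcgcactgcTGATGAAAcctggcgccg
GARS1 (fell; chr7:30594835-30594862, minus strand): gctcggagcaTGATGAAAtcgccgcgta

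The match began 209 bases before the start site in CHAC1, 187 in AARS1, 68 in ASNS, 33 in GARS1 and 6 in SLC1A4, counted along the gene, and after it in NARS1 and SLC7A1. In ASNS, GARS1 and SLC1A4 that start is 1 of several in RefSeq and lies within the outermost bounds of the gene. In MARS1, CEBPG, SLC1A5 and SLC3A2 the letters were present and the gene did not pass the test. Of the 11 genes with a match 4 rose and 3 fell (median log2 fold change 0.00, range -1.15 to 1.08), and of the 17 tested genes with a window and no match 6 rose and 8 fell (median -0.07, range -1.18 to 1.35). With the median shift of tested genes within 5 Mb removed, 7 genes with a match were higher and 3 lower, NARS1 and SLC7A1 having turned, and 4 without a match were higher and 9 lower (medians 0.09 and -0.15). A match describes these letters only and is not a site shown to be bound. For CHAC1 and AARS1, which rose and carry the match well before the start, the 250 bases up to the start are given along the gene, where the element lies on the other strand and so reads TTGCATCA in capitals.
CHAC1 (chr15:40953221-40953470, plus strand): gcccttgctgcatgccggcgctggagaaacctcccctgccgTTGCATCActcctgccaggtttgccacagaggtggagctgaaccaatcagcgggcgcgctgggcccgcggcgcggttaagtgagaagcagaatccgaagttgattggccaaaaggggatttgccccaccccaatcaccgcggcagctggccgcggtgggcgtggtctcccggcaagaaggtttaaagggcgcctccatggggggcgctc
AARS1 (chr16:70289507-70289756, minus strand): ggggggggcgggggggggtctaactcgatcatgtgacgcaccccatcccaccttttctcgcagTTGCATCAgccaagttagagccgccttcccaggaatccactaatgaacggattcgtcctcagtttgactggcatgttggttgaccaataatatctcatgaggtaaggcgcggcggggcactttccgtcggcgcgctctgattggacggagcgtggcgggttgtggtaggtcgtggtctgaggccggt

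Among the regulators, ATF4 mRNA rose modestly while the mRNA of its relative ATF5 and of DDIT4 fell. ATF4 (NCBI gene 468, chromosome 22, 39520559 to 39522686, GRCh38) had 163.0, 159.0 and 157.4 CPM in shPRAME, against 124.6, 123.2 and 127.9 CPM in shCtrl. Every shPRAME library lay above every shCtrl library, and ATF4 rose by 0.35 on the log2 scale (SE 0.0269, edgeR adjusted p = 2.49e-09). Tested genes within 5 Mb of ATF4 had a median log2 fold change of 0.21, with 91 of 134 above 0, and with that shift removed ATF4 stood at 0.15 (edgeR adjusted p = 0.000118). Here and below, adjusted p-values with the shift removed take the neighbours' median as fixed and leave out the spread of the neighbours.

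DDIT4, also known as REDD1, encodes an inhibitor of the growth kinase complex mTORC1 and had the deepest fall of the members. The gene (chromosome 10, 72273924 to 72276036) had 47.9, 48.6 and 47.5 CPM in shPRAME, against 112.8, 110.2 and 103.1 CPM in shCtrl, which did not overlap. It fell by 1.18 on the log2 scale (SE 0.0358, edgeR adjusted p = 9.83e-15), which is 2.27-fold, and 15.5% of all tested genes had a larger change in either direction. Its neighbours within 5 Mb had a median of -0.04.

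ATF5, a basic leucine zipper factor whose mRNA is also under translational control, had 14.7, 15.3 and 16.6 CPM in shPRAME, against 27.2, 25.9 and 24.5 CPM in shCtrl. It fell by 0.74 on the log2 scale (SE 0.0603, edgeR adjusted p = 6.17e-09). ATF5 shares 599 bases of its locus with NUP62, and since the counting is not stated to use strand, reads there cannot be told apart. NUP62 summed to 9611 counts in shPRAME and 8954 in shCtrl, the opposite direction. The C/EBP factor CEBPB fell by 0.32 on the log2 scale, and PPP1R15A (GADD34), which directs a phosphatase to eIF2 and so closes the response, fell by 0.26. Both passed with edgeR adjusted p of 2.19e-05 and 2.77e-06.

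The other regulators did not pass. CEBPG, a partner of ATF4, averaged 28.4 ± 0.258 CPM in shPRAME and 27.4 ± 1.52 in shCtrl. TRIB3, a pseudokinase that restrains ATF4, averaged 26.5 ± 0.731 and 26.3 ± 1.56 CPM, and DDIT3, the stress factor CHOP, 8.22 ± 0.602 and 8.98 ± 1.12 CPM, in shPRAME and shCtrl (SD, n = 3 each). DDIT3 had a log2 fold change of -0.13 (edgeR adjusted p = 0.231) that passed without shCtrl replicate 3, at -0.23 (edgeR adjusted p = 0.0312), and it overlaps MARS1 by 65 bases. NUPR1, a stress-induced chromatin factor, had 2, 4 and 3 counts in shPRAME and 0 in each shCtrl library, too few for the filter on low counts.

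**Figure D2:**
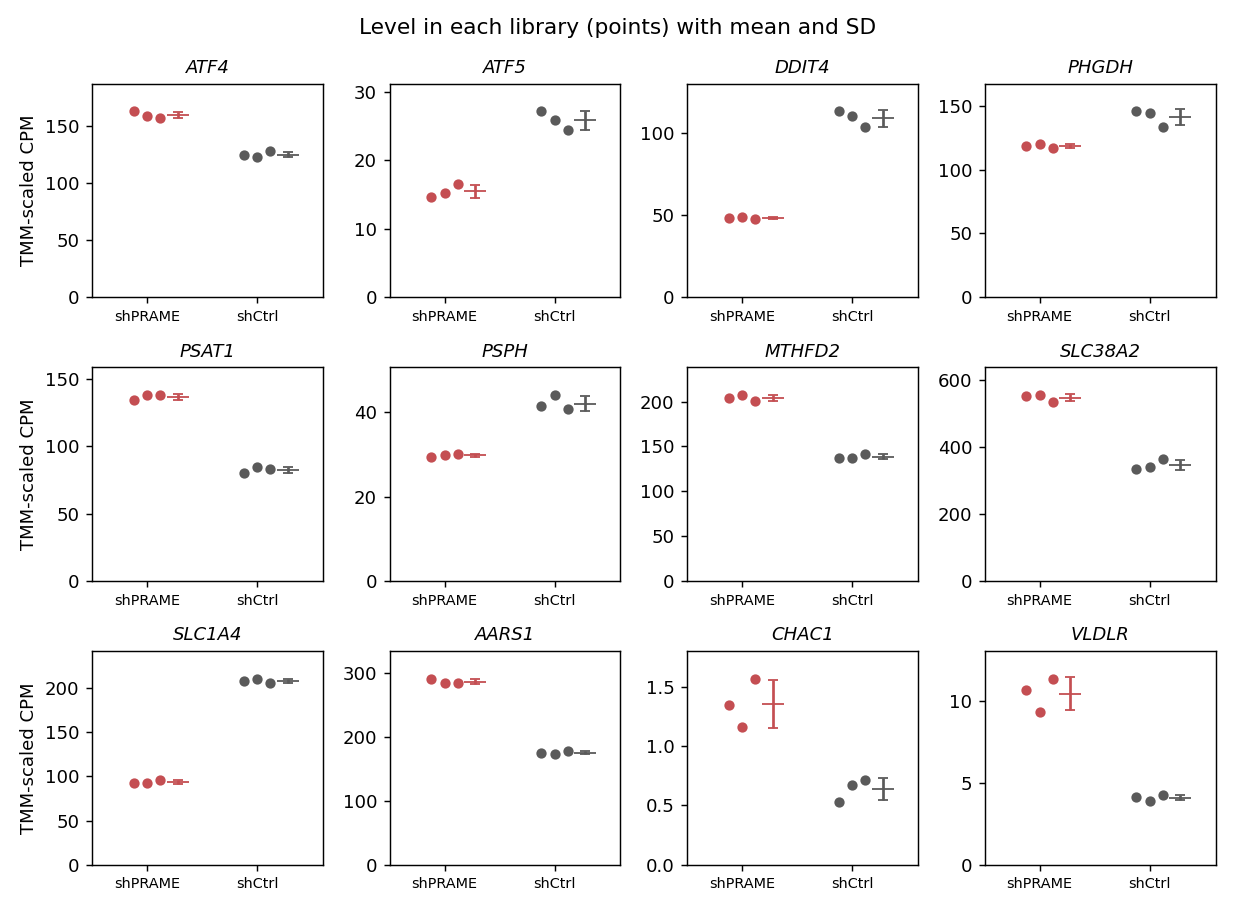
TMM-scaled CPM of 12 members in each library (points), with the mean and SD of 3 libraries beside them; shPRAME is left of shCtrl and each axis starts at 0. The groups do not overlap in any of the 12 panels, with shPRAME higher in ATF4, PSAT1, MTHFD2, SLC38A2, AARS1, CHAC1 and VLDLR.

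Enzymes of amino acid synthesis split within single pathways. Serine is made from a glycolytic intermediate in 3 steps, by PHGDH, PSAT1 and PSPH in turn, and the middle step moved against the other two. PSAT1 (chromosome 9, 78297125 to 78330093) had 134.2, 137.5 and 137.6 CPM in shPRAME, against 80.2, 84.2 and 82.8 CPM in shCtrl. PHGDH had 119.0, 120.2 and 117.1 CPM in shPRAME, against 145.7, 144.4 and 133.9 CPM in shCtrl, and PSPH 29.4, 29.9 and 29.98 CPM, against 41.4, 43.99 and 40.7 CPM. None of these groups overlapped. The log2 fold changes were 0.73 for PSAT1 (SE 0.0287, edgeR adjusted p = 3.18e-13), -0.25 for PHGDH (SE 0.0321, edgeR adjusted p = 1.74e-06) and -0.50 for PSPH (SE 0.0418, edgeR adjusted p = 9.28e-09). PSAT1 lies among genes that were higher too: 15 of 22 tested neighbours were above 0, with a median of 0.67, and with that shift removed PSAT1 stood at 0.06 (edgeR adjusted p = 0.0705). PSPH lies among genes that were lower, 13 of 17 below 0 with a median of -0.23, and stood at -0.27 with that shift removed (edgeR adjusted p = 2.16e-05).

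The mitochondrial one-carbon enzymes among the members pass on a carbon unit from serine, and of these MTHFD2 rose while SHMT2 changed little. MTHFD2 (chromosome 2, 74198615 to 74217565) had 204.1, 206.9 and 200.5 CPM in shPRAME, against 137.2, 136.6 and 141.7 CPM in shCtrl. It rose by 0.56 on the log2 scale (SE 0.0260, edgeR adjusted p = 3.01e-12), and by 0.47 with the shift of its neighbours removed. SHMT2, the enzyme before it, averaged 168.3 ± 1.13 CPM in shPRAME and 178.0 ± 6.35 in shCtrl, a log2 fold change of -0.08 that passed narrowly (edgeR adjusted p = 0.0153). SHMT2 no longer passed without shCtrl replicate 2, shPRAME replicate 1 or shPRAME replicate 2 (edgeR adjusted p = 0.0714, 0.0644 and 0.0687), nor with scaling to library totals (edgeR adjusted p = 0.343).

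Proline synthesis from glutamate showed opposed steps, as serine synthesis did. ALDH18A1, the first enzyme, averaged 92.8 ± 2.84 CPM in shPRAME and 124.4 ± 2.63 in shCtrl and fell by 0.42 on the log2 scale (edgeR adjusted p = 1.08e-09). PYCR1, the last enzyme in mitochondria, averaged 50.6 ± 0.647 and 39.2 ± 3.09 CPM and rose by 0.36 (edgeR adjusted p = 1.85e-06). ASNS, asparagine synthetase and a classic ATF4 target, averaged 65.8 ± 0.891 CPM in shPRAME and 62.1 ± 0.961 in shCtrl (SD, n = 3 each). Its log2 fold change of 0.08 passed (edgeR adjusted p = 0.0235), but not without shCtrl replicate 1, shCtrl replicate 2 or shPRAME replicate 1 (edgeR adjusted p = 0.0682, 0.0781 and 0.0537), nor by DESeq2 (adjusted p = 0.101). With the shift of its neighbours removed ASNS stood at 0.17 (edgeR adjusted p = 0.000131).

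Of the 6 transporters, SLC38A2 rose most and SLC1A4 fell most, both carriers of small neutral amino acids. SLC38A2, the sodium-coupled transporter SNAT2 (chromosome 12, 46358188 to 46372773), had 549.7, 552.9 and 534.3 CPM in shPRAME, against 332.4, 340.6 and 362.1 CPM in shCtrl. SLC1A4, the exchanger ASCT1 (chromosome 2, 64988479 to 65023865), had 92.4, 93.1 and 96.3 CPM in shPRAME, against 207.9, 210.0 and 206.2 CPM in shCtrl. Both pairs of groups were well apart. The log2 fold changes were 0.66 for SLC38A2 (SE 0.0287, edgeR adjusted p = 1.17e-12) and -1.15 for SLC1A4 (SE 0.0265, edgeR adjusted p = 2.59e-16), a fall of 2.21-fold. Neighbours of both had medians near 0, at 0.07 and 0.08.

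SLC7A5 (LAT1), which imports large neutral amino acids, averaged 343.7 ± 10.4 CPM in shPRAME and 303.9 ± 7.71 in shCtrl, a log2 fold change of 0.18 (edgeR adjusted p = 1.34e-05). Its neighbours had a median of 0.16, and with their shift removed it stood at 0.02 (edgeR adjusted p = 0.578). SLC3A2 (CD98), the heavy chain that carries SLC7A5 to the membrane, averaged 128.5 ± 1.67 and 128.1 ± 4.16 CPM and did not pass (edgeR adjusted p = 0.911). SLC1A5 (ASCT2), a glutamine carrier, averaged 213.0 ± 3.14 and 217.2 ± 4.69 CPM and did not pass either (edgeR adjusted p = 0.316).

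SLC7A1, the cationic amino acid transporter CAT1, fell less than the median of its neighbours. It had 151.2, 152.2 and 160.2 CPM in shPRAME, against 166.3, 167.0 and 165.2 CPM in shCtrl, a small fall without overlap (log2 fold change -0.10, edgeR adjusted p = 0.00235). Scaled to library totals the fall did not pass (edgeR adjusted p = 0.0853). On chromosome 13, 32 of its 39 tested neighbours were below 0, with a median of -0.51, and with that shift removed SLC7A1 stood at 0.41 (edgeR adjusted p = 5.955e-10).

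tRNA synthetases, which charge tRNAs with their amino acids, changed little except for AARS1. The alanyl enzyme AARS1 (chromosome 16, 70252298 to 70289506) had 290.2, 283.5 and 284.4 CPM in shPRAME, against 174.4, 174.0 and 177.7 CPM in shCtrl. It rose by 0.71 on the log2 scale (SE 0.0237, edgeR adjusted p = 3.75e-14), and by 0.56 with the shift of its neighbours removed. The other 6 had log2 fold changes from -0.21 to 0.18, and the median absolute change of the 7 was 0.10, against 0.38 over all tested genes and 0.29 over protein-coding genes at a mean of 10 CPM or more.

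GARS1, for glycine, averaged 225.4 ± 1.26 CPM in shPRAME and 261.0 ± 3.57 in shCtrl and fell by 0.21 on the log2 scale (edgeR adjusted p = 2.62e-07). WARS1, for tryptophan, which interferon also induces, averaged 148.0 ± 2.44 and 158.0 ± 3.02 CPM (edgeR adjusted p = 0.00367), and EPRS1, for glutamate and proline, 418.3 ± 1.98 and 440.0 ± 12.97 CPM (edgeR adjusted p = 0.0122). Both small falls ended with scaling to library totals (edgeR adjusted p = 0.127 and 0.374), and that of EPRS1 also without shCtrl replicate 2 (edgeR adjusted p = 0.0612). With the shift of their neighbours removed both were deeper, at -0.23 for WARS1 and -0.22 for EPRS1 (edgeR adjusted p = 6.66e-07 and 4.14e-07). SARS1, for serine, averaged 99.9 ± 0.678 and 104.3 ± 2.42 CPM, and MARS1, for methionine, 167.0 ± 1.73 and 172.2 ± 4.24 CPM in shPRAME and shCtrl (SD, n = 3 each). Neither passed (edgeR adjusted p = 0.0542 and 0.131), but both did without shCtrl replicate 3, at log2 fold changes of -0.08 and -0.07 (edgeR adjusted p = 0.0211 and 0.0301).

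NARS1, for asparagine, stands among raised genes on chromosome 18, where 22 of 28 tested neighbours were above 0 with a median of 0.51. It had 244.0, 243.4 and 236.3 CPM in shPRAME, against 207.2, 210.3 and 220.8 CPM in shCtrl, and rose by 0.18 on the log2 scale (edgeR adjusted p = 1.24e-05). With that shift removed it stood at -0.33 (edgeR adjusted p = 1.06e-08).

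The 2 largest increases were in members of low level. VLDLR, a lipoprotein receptor raised by ATF4 under stress (chromosome 9, 2621787 to 2660056), had 10.6, 9.31 and 11.3 CPM in shPRAME, against 4.11, 3.92 and 4.25 CPM in shCtrl. Its log2 fold change was 1.35 (SE 0.0991, edgeR adjusted p = 1.51e-09), 0.96 with its neighbours' shift removed. A noncoding gene, LOC105375957, overlaps VLDLR by 10873 bases and summed to 1710 counts in shPRAME and 822 in shCtrl, so reads in the shared stretch are uncertain. CHAC1, which degrades glutathione and marks acute ATF4 activity (chromosome 15, 40953471 to 40956512), had 42, 40 and 54 counts in shPRAME and 18, 22 and 22 in shCtrl, or 1.34, 1.16 and 1.56 CPM against 0.533, 0.673 and 0.714 CPM. The groups did not overlap, and CHAC1 rose by 1.08 (SE 0.221, edgeR adjusted p = 0.000280). STC2, a secreted glycoprotein, had 2 counts in 1 library of each group and 0 in the others, and was not tested.

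With the shift of neighbouring genes removed, 12 members stood higher and 13 lower, where 36.1% and 35.1% of all genes did (71.2% in all), and 19 of the 24 members that had passed kept their call and direction. By role, 3 synthesis enzymes were then higher and 3 lower, 4 transporters higher and 1 lower, 1 synthetase higher and 4 lower, and 2 regulators higher and 5 lower. CEBPG and SLC3A2, which had not passed before, did so in that fit at 0.24 and 0.08. The part of regional shifts in the members' values was not tested further.

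Per kb of the longest annotated transcript, regulators, synthesis enzymes and transporters each spanned a wide range. The tRNA synthetases spanned a narrower one, from 46.5 (MARS1) to 85.6 (GARS1) CPM per kb in shPRAME. SLC38A2 stood highest in shPRAME at 111.6 CPM per kb, and GARS1 in shCtrl at 99.1 CPM per kb. Among the tested members CHAC1 and VLDLR were lowest, at 0.734 and 1.14 CPM per kb in shPRAME and 0.346 and 0.447 in shCtrl. ATF4 itself stood at 79.2 ± 1.43 CPM per kb in shPRAME and 62.0 ± 1.197 in shCtrl, near the top of the members, while the other tested bZIP factors, ATF5, CEBPB, CEBPG and DDIT3, lay between 6.91 and 12.3 CPM per kb in shPRAME and between 6.67 and 15.3 in shCtrl. With the length of all exons joined in place of the longest transcript, SLC38A2 remained highest in shPRAME at 82.6 CPM per kb, EPRS1 stood highest in shCtrl at 80.7, and PHGDH, which moved most as a ratio, stood at 12.9 CPM per kb in shPRAME in place of 37.3.

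**Figure D3:**
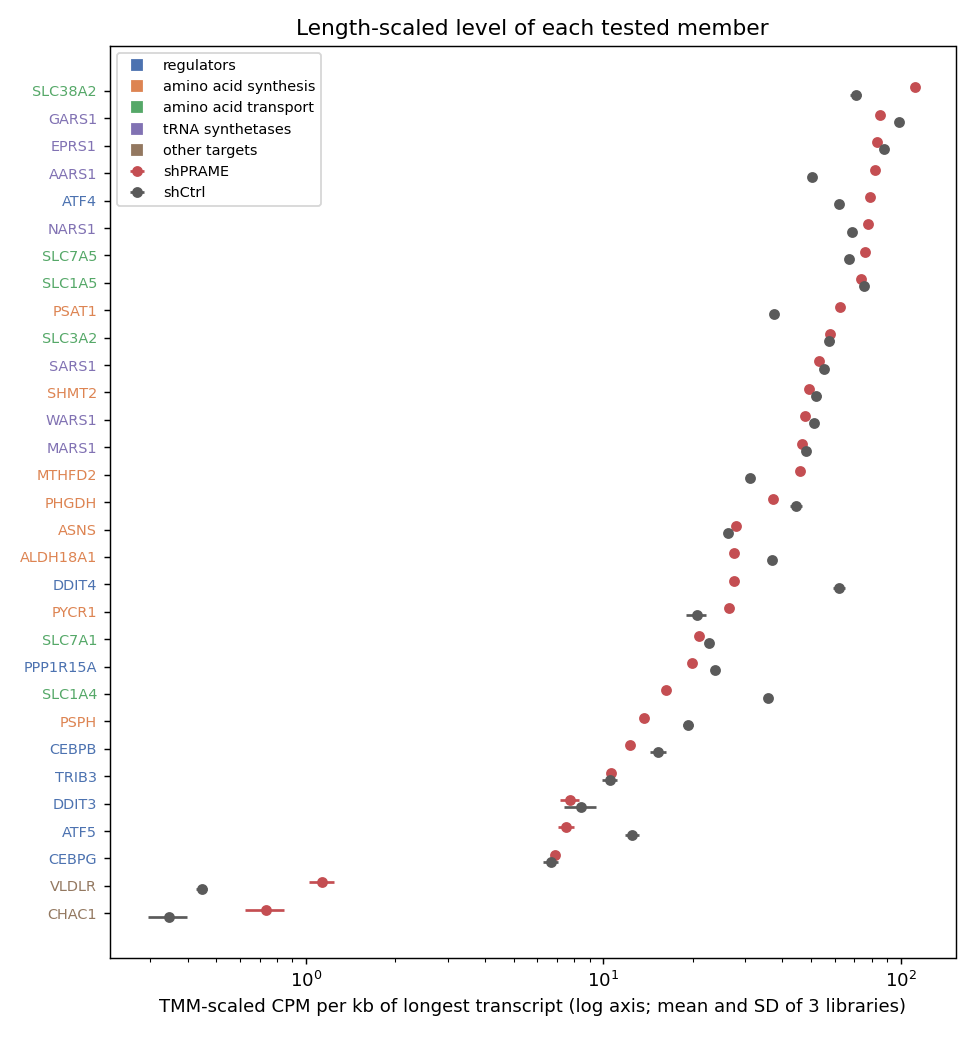
Length-scaled level of each tested member, as TMM-scaled CPM per kb of the longest transcript on a log axis, mean and SD of 3 libraries, ordered by shPRAME with shPRAME points drawn above shCtrl points. SLC38A2 is at 111.6 in shPRAME and 70.6 in shCtrl, and CHAC1 at 0.734 and 0.346.

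Other genes of the pathway were also divided. Of 16 genes for eIF2 kinases, eIF2, eIF2B and their controls, 7 rose and 8 fell (median log2 fold change -0.08): EIF2AK4, the amino acid sensor GCN2, averaged 119.0 ± 1.03 CPM in shPRAME and 171.6 ± 1.09 in shCtrl (log2 fold change -0.53, edgeR adjusted p = 3.70e-12), and EIF2S3, the gamma subunit of eIF2, 338.0 ± 4.48 and 535.2 ± 7.65 CPM. IMPACT, an inhibitor of GCN2, rose by 0.57 on the log2 scale. The neighbours of IMPACT had a median of 0.38, and less that median IMPACT stood at 0.18. Of 16 tested further ATF4 targets 8 rose and 5 fell (median 0.19). GPT2, the mitochondrial alanine aminotransferase, averaged 36.7 ± 1.32 CPM in shPRAME and 14.2 ± 0.464 in shCtrl, while NIBAN1, a stress-induced cytoplasmic protein, averaged 23.8 ± 1.95 and 109.8 ± 1.10 CPM.

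Other cytosolic synthetases and their scaffold gave 7 genes that rose and 8 that fell of 16 (median -0.03), and mitochondrial synthetases 8 and 7 of 17 (median 0.03). Other amino acid and one-carbon enzymes gave 8 and 9 of 21 tested (median -0.04), and ALDH1L2, a mitochondrial folate enzyme next to MTHFD2 in function, averaged 33.4 ± 1.197 CPM in shPRAME and 13.2 ± 0.457 in shCtrl. Of 15 other amino acid transporters tested, 11 rose and 3 fell (median 0.71), and 7 rose at least 2-fold. Over all tested genes 37.7% rose, 10.1% by at least 2-fold. SLC1A2 and SLC7A8, both among the 7, had 54 and 239 counts over shPRAME and 7 and 18 over shCtrl. They had enough counts for the test only through shPRAME, so a call on them could only be higher. Summed levels of the 15 were 798.5 ± 5.83 CPM in shPRAME and 475.4 ± 8.86 in shCtrl. SLC6A15, a neutral amino acid transporter, averaged 168.2 ± 4.57 and 62.9 ± 0.933 CPM, and SLC1A1, a glutamate carrier, 53.4 ± 0.601 and 8.31 ± 1.09 CPM. The neighbours of these 2 genes had median log2 fold changes of 0.67 and 0.40, while over the 15 the median regional shift was 0.06 and the median change less that shift 0.63. The difference between these transporters and the 6 members was not tested. Of 18 genes of amino acid sensing by mTORC1 5 rose and 7 fell (median -0.14), with RRAGC at 14.3 ± 0.501 CPM in shPRAME and 39.4 ± 0.973 in shCtrl. Of 13 genes from the other arms of the unfolded protein response 8 rose and 3 fell (median 0.17). MANF rose most, at 119.9 ± 1.16 and 72.8 ± 2.57 CPM (SD, n = 3 each), while DNAJB9 and HERPUD1 fell by 0.39 and 0.24 on the log2 scale. Over the 13 the median regional shift was 0.15 and the median change less that shift 0.05.

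**Figure D4:**
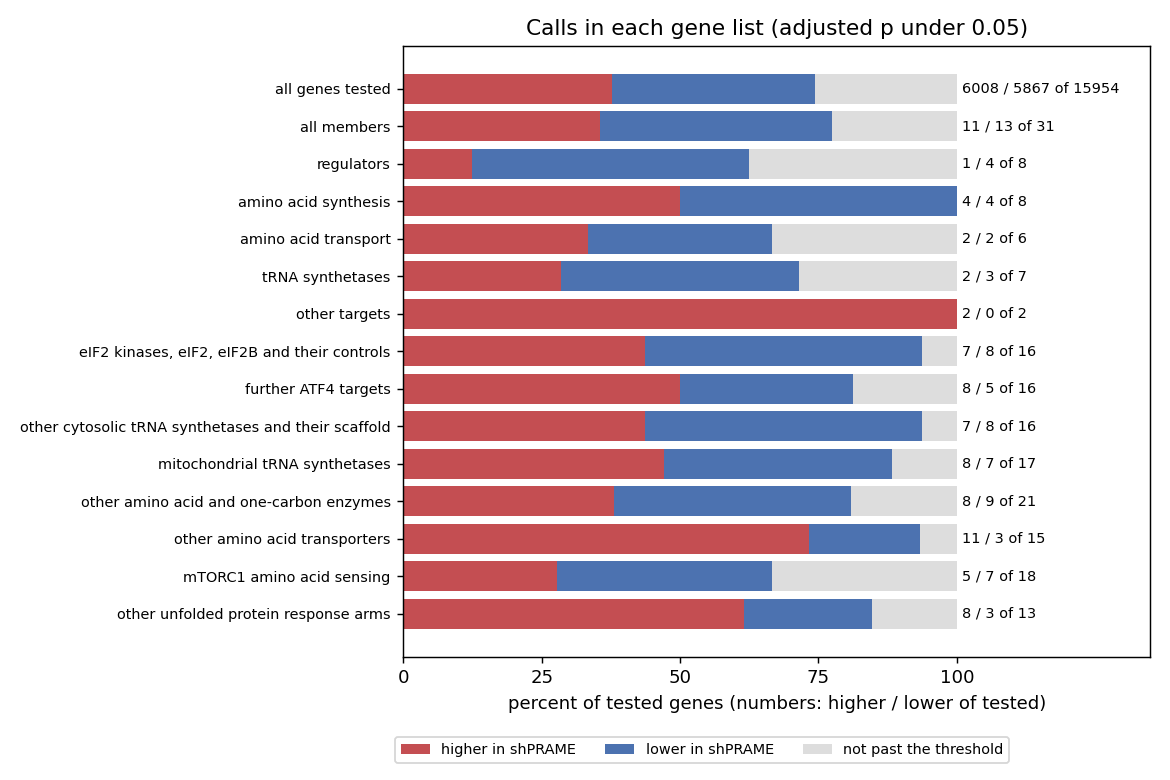
Percent of tested genes that rose (red), fell (blue) or did not pass (grey) in each list, with the numbers at the right, beside all 15954 genes tested. The 31 tested members hold 11 that rose and 13 that fell, where 37.7% and 36.8% of all genes did, and other amino acid transporters (11 rose, 3 fell of 15) hold the most genes that rose among the lists of other pathway genes. Of these, SLC1A2 and SLC7A8 had enough counts for the test only through shPRAME.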

How the data were processed

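Per the file headers, the authors deposited 1 table of raw counts for each library, keyed by NCBI gene identifier; all values were whole numbers. The submitters' processing notes list GRCh38 and hg38 as builds and fastp, STAR and Salmon as tools, with no role for any. Which tool counted, with what annotation and strand setting, is not given in the sources used here, so values of overlapping or near-identical genes are uncertain. Each file had 40929 rows; 34 repeated identifiers were added together. Symbols and coordinates came from the RefSeq gene table of GRCh38.p14, and transcript lengths from GENCODE release 29.

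The test was edgeR 4.0.16 under R 4.3.3 (filterByExpr, TMM, then the 2-sided quasi-likelihood functions glmQLFit and glmQLFTest), the model holding group alone. The SE was taken as the absolute log2 fold change over the square root of F. The regional shift is the median log2 fold change of at least 10 tested genes starting within 5 Mb, entered as an offset. That offset was treated as known, so p-values with it reflect variation between libraries and not the error of the median. The script was tested on simulated data. Members and lists were chosen with earlier results of these data known. Named genes were all 33 members, PRAME, and, of each other list, up to 2 that rose and 2 that fell, by smallest adjusted p, of which some are given; of marker lists, the 2 of highest level. COL1A2, LUM, COL3A1, COL1A1, PTPRC, SLC1A2, SLC7A8, the pigment genes and CD3E were chosen after their values were seen. Alternatives were RLE factors, library totals, other filters, DESeq2 1.42.0, limma-voom (limma 3.58.1), glmTreat, a replicate block, each library left out, and the regional offset. A count of 0 allows up to 3 counts, 0.0880 to 0.0973 CPM per library, for counting error only.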

Additional observations from a re-analysis of the deposited data

How the results depend on the processing

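Counts of members that rose (11) and fell (13) stayed within 1.5 times under RLE factors, library totals (11 and 9), no filter (12 and 13, NUPR1 being added), the stricter filter (11 and 14), DESeq2 (10 and 13), limma-voom (11 and 13) and the regional offset (12 and 13), and between 10 and 11 and between 11 and 16 with each library left out. Against a fold of 1.2, 7726 genes passed (3921 higher, 3805 lower), of the members 8 higher and 5 lower, because that test asks for a larger change. With the regional offset 4 members turned: NARS1 to -0.33, SLC7A1 to 0.41, and TRIB3 to -0.15 and SLC1A5 to 0.087, which had not passed before; the cause was not tested. The labels number the replicates alike, and same-numbered libraries deviated with correlations of -0.06, -0.12 and -0.10, which gave no sign of pairing by number. A small shared effect could be missed in this way, so whether the libraries were paired was not settled. With the replicate block 11603 genes passed in place of 11875, and the same 24 members. Scaling to library totals moved the median of all genes to 0.06. Depth limits CHAC1, NUPR1 and STC2, which had few counts or were not tested.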

Other observations

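SLC7A5 and SLC3A2 encode the light and heavy chains of one transporter, and their ratio of length-scaled levels differed between the groups. It was 1.26, 1.32 and 1.36 in the shPRAME libraries, against 1.16, 1.13 and 1.19 in the shCtrl libraries, without overlap; the pair was chosen for its shared function and the ratio carries no test. The pseudogene SLC7A5P2, which resembles SLC7A5, summed to 206 counts in shPRAME and 126 in shCtrl, few beside the counts of SLC7A5.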
